A study of Mus musculus with 6 samples.

Results

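De novo lipogenesis is the pathway by which the liver turns carbohydrate into fatty acids. Its 10 genes here were Srebf1, Mlxipl, Acly, Acaca, Acacb, Fasn, Scd1, Elovl6, Thrsp and Me1, chosen by symbol from a table of 17975 genes. All 10 were present and all 10 were among the 13805 genes tested. The RNA came from whole livers of 3 WT mice (titled Ctrl) and 3 mice whose genotype was labelled NEK7 hepatocyte knock-out (titled Homo, here Hom). Hom mice carried floxed NEK7 alleles together with Alb-Cre, a transgene in which the albumin promoter drives Cre recombinase in hepatocytes, on a C57BL/6 background. The breeding scheme gave floxed mice without Cre and mice with Alb-Cre alone as WT, and which of these the sequenced WT livers came from was not given in the sources used here. Mice were fed ad libitum. The study's reporting summary states a general age range for its mice and its text describes older Hom mice, and neither is tied to the sequenced livers. Their fed or fasted state and the hour of collection were not found in the sources used here. Each library was 1 liver of 1 mouse.

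The pathway runs in a fixed order. ACLY splits citrate into cytosolic acetyl-CoA, acetyl-CoA carboxylase makes malonyl-CoA, fatty acid synthase builds palmitate from it, and ELOVL6 and SCD1 lengthen and desaturate the product. Malic enzyme supplies part of the NADPH that the synthase uses. In liver these genes are induced mainly by SREBP-1c (from Srebf1), which answers to insulin, and by ChREBP (from Mlxipl), which answers to sugars, so feeding raises them and fasting lowers them.

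Among the 10 genes, the transcript of one of these factors rose and that of the other fell, while most enzyme transcripts did not pass the test. Srebf1 was 1.60-fold higher in Hom livers and Mlxipl was 2.07-fold lower. Elovl6 was 1.37-fold higher, and the other 7 genes were not called. Fasn, Acaca and Scd1, the core synthesis and desaturation enzymes, had log2 fold changes between 0.12 and 0.20.

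The start regions of the 3 called genes are shown because SREBP-1 and ChREBP bind known DNA motifs and share many target genes, and because Srebf1 and Mlxipl are each annotated with several start sites that gene counts cannot separate. RefSeq windows on GRCm38.p6, running from 250 bases before to 50 bases after a start site, were found for 9 of the 10 genes (13 windows in all); Scd1 had none. The windows were searched on both strands. TCACNCCAC was taken as the sterol regulatory element (SRE) that SREBP proteins bind. CACGTG was taken as the E-box, the core of sites bound by ChREBP and by other factors. CCAAT was read as the box of that name, where the factor NF-Y binds. GGGCGG was read as the box that Sp1 and related proteins bind (the GC box). Only the 250 bases before each start are printed, 5′ to 3′ on the strand of the gene, with every match in capitals. No match of one motif overlapped a match of another in these 13 windows.
Mlxipl, upstream start, chr5:135089640-135089889, plus strand: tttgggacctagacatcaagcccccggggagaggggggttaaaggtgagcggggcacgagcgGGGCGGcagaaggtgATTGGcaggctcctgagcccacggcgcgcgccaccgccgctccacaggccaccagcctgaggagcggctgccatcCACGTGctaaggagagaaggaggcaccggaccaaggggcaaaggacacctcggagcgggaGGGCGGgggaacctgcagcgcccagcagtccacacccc
Mlxipl, downstream start, chr5:135106641-135106890, plus strand: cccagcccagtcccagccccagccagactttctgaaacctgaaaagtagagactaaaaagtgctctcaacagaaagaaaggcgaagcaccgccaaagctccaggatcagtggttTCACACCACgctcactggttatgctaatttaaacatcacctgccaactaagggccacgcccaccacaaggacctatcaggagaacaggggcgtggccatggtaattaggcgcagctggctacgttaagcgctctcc
Srebf1, most upstream start, chr11:60222582-60222831, minus strand: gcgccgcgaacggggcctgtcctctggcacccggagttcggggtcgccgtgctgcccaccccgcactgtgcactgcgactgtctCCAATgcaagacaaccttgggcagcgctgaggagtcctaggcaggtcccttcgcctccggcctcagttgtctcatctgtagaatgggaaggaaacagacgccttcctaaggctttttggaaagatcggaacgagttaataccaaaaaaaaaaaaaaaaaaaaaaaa
Srebf1, middle start, chr11:60220628-60220877, minus strand: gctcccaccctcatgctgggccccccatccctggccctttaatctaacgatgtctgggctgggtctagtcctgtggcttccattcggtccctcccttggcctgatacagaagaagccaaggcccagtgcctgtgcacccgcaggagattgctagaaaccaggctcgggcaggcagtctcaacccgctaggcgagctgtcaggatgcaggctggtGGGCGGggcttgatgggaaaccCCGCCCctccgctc
Srebf1, most downstream start, chr11:60210472-60210721, minus strand: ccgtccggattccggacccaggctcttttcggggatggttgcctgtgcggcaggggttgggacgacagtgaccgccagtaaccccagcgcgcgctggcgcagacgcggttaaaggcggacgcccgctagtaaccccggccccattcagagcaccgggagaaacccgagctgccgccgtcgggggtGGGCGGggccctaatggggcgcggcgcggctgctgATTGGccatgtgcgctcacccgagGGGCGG
Elovl6, chr3:129532136-129532385, plus strand: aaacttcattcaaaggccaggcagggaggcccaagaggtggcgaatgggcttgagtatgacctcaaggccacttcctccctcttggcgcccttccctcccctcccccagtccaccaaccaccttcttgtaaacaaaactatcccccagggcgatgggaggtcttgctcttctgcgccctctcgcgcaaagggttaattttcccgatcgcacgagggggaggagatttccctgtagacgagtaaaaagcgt

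The window at the upstream Mlxipl start held the E-box, whose left end lay at -98 from the start site, and the window at the downstream start, 17001 bases away, held the SRE at -136. These were the only member windows with either motif (1 of 13 each), where all 32851 windows of that length held the E-box in 7.15% and the SRE in 1.24%. The window of Elovl6 held none of the 4 motifs. A CCAAT box was found in 8 of the 13 windows, against 37.4% of all windows, and a GC box in 5 of 13, against 35.7%. The matches describe the letters of the windows. The libraries measured no binding and no start site.

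Before the genes were compared, the livers were checked against their labels. Nek7 stood at 62.9, 69.1 and 63.7 CPM (counts scaled to a fixed library total, after TMM scaling of the libraries) in WT livers 1 to 3 and at 14.5, 18.1 and 16.7 CPM in Hom livers 1 to 3. The fall (log2 fold change -1.99, SE 0.10, adjusted p = 1.59e-04, edgeR quasi-likelihood test) left 0.252 of the WT level in whole liver, where cells without Alb-Cre remain. Library totals ran from 19349418 to 19730236 estimated counts, and TMM factors from 0.81 to 0.92 in WT against 1.09 to 1.23 in Hom. Hom liver 1 differed from the other 5 in having 0 counts of Ddx3y and of Kdm5d, genes of the Y chromosome with at least 243 counts in each other liver. Of 2 further Y-linked genes it had 4 counts of Eif2s3y and 149 of Uty, where each other liver had at least 582 and 464. Results are therefore given below without it where they rest on it.

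Levels of cell type markers differed between the groups. Calls here are with TMM unless another scaling is named, and with TMM 20.1% of all tested genes were lower and 21.5% higher. Of the 20 hepatocyte markers, which were all expressed, 13 were lower in Hom and 0 higher, and their summed level was 209247 to 246652 CPM in WT against 113896 to 163013 CPM in Hom. All 8 cholangiocyte markers were higher (summed 45.8 to 77.9 against 643 to 861 CPM), as were 3 of 6 stellate cell markers with 1 lower (297 to 367 against 556 to 616 CPM). Of 6 macrophage markers 2 were lower and 2 higher (130 to 292 against 208 to 274 CPM), of 5 endothelial markers 3 were lower (125 to 173 against 73.7 to 77.8 CPM), and of 3 tested lymphocyte markers 1 was higher (1.29 to 4.3 against 3.69 to 6.39 CPM). With library size alone 7 hepatocyte markers were lower and 1 higher, and with libraries scaled to those markers 6 and 5. Under both, stellate and macrophage markers each gave 1 lower and 4 higher, and all 8 cholangiocyte markers stayed higher. Endothelial markers gave 2 lower and 1 higher, then 2 and 2, and lymphocyte markers 1 and then 2 higher. Fat cells also run this pathway, and their markers Adipoq, Plin1, Lep and Retn were at or near 0 in every liver, at most 0.307 CPM. Cfd, like them not tested, was at 0, 0.577 and 1.60 CPM in WT livers 1 to 3 and at 0, 0.082 and 0.086 CPM in Hom livers 1 to 3. Of the 2 adipocyte markers that could be tested, 1 was higher (Fabp4, which other cells also make), and the pair summed to 5.26 to 8.79 CPM in WT and 14.5 to 22.4 CPM in Hom. In bulk tissue, fewer cells of a type and less RNA per cell cannot be told apart, and the part of these shifts in the results below was not tested.

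In the main edgeR fit, calls were no more frequent among the 10 genes than across all genes tested. Across all genes tested, 2780 (20.1%) were called lower in Hom and 2974 (21.5%) were called higher (adjusted p under 0.05 in edgeR, Benjamini-Hochberg over the 13805 genes, no minimum fold). Of the 10 lipogenesis genes 1 was lower and 2 were higher, shares near or below those. The livers of the groups did not overlap for 4 of the 10 (Srebf1, Mlxipl, Acacb and Elovl6), against 55.6% of all tested genes. The median log2 fold change of the 10 was -0.17, against -0.0018 for all tested genes. A further 4 genes (Acly, Acacb, Thrsp and Me1) had log2 fold changes of -0.47 to -0.81 with an unadjusted edgeR p under 0.05 and adjusted p-values of 0.0615 to 0.0898. With Mlxipl, 5 of the 10 were lower at that unadjusted threshold, against 24.8% of all genes tested, and 2 were higher. DESeq2 called Acly, Acacb, Thrsp and Me1 as well, so that it gave 5 members lower and 2 higher. Of its 15774 tested genes 18.0% were lower and 3014 were higher, so its lower calls were more frequent among the 10 than over all genes.

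**Figure D1:**
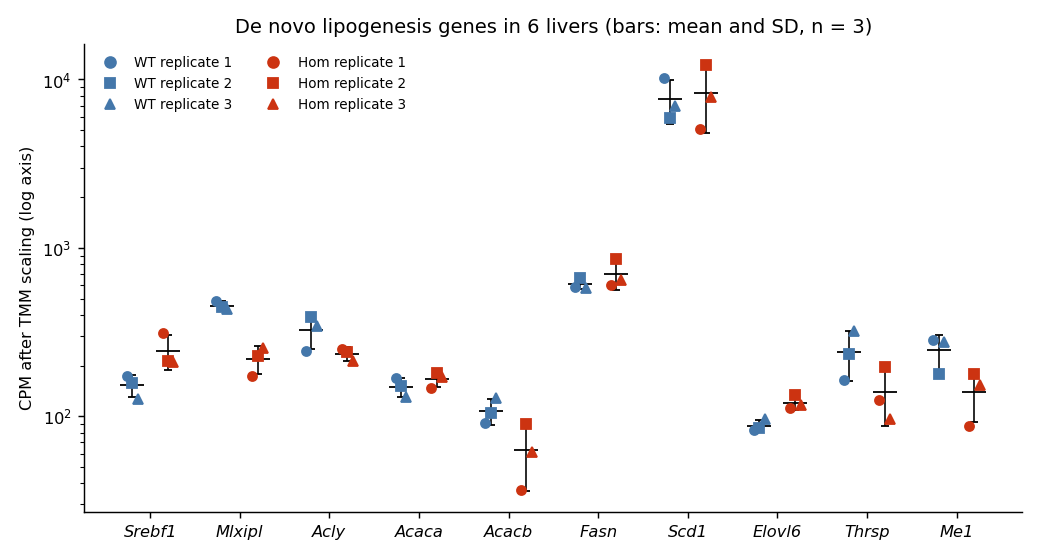
Level of each lipogenesis gene in each of the 6 livers, in CPM after TMM scaling on a log axis; blue symbols are WT and red symbols Hom livers, the long tick is the mean and the bar the SD of 3 livers. The groups separate for Mlxipl (431 to 487 CPM in WT, 175 to 255 CPM in Hom), Srebf1, Elovl6 and Acacb and overlap for the other 6 genes.

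Srebf1 encodes the SREBP-1 proteins, membrane-bound precursors that are cleaved to give the transcription factor. Its level was 173, 158 and 127 CPM in WT livers 1 to 3 and 311, 212 and 211 CPM in Hom livers 1 to 3. Every Hom liver was above every WT liver, and Hom liver 1 was the highest. The means were 153 ± 23.4 CPM (SD, n = 3) and 245 ± 57.5 CPM (SD, n = 3), a log2 fold change of 0.68 (SE 0.19, 95% interval 0.23 to 1.13, edgeR adjusted p = 0.0276). Srebf1 was higher under each scaling tried. The call did not hold when WT liver 2 (0.70, adjusted p = 0.0758) or WT liver 3 (0.56, adjusted p = 0.0847) was left out, and without Hom liver 1 the value was 0.47 (adjusted p = 0.0416). Exons on the opposite strand overlap 4 of the 10 genes in GENCODE M21 (Rai1 at Srebf1, Gm43500 at Mlxipl, Gm35986 at Elovl6 and A330041J22Rik at Me1), and strandedness was not given in the sources used here. Of these only Rai1 was among the genes tested, and it averaged 15.1 CPM in WT and 22.6 CPM in Hom.

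Mlxipl encodes ChREBP, which also drives glycolytic genes such as Pklr. It was measured at 487, 445 and 431 CPM in WT and at 175, 227 and 255 CPM in Hom. The highest Hom liver stayed well under the lowest WT liver. Means of 454 ± 29.1 and 219 ± 40.8 CPM (SD, n = 3 each) gave a log2 fold change of -1.05 (SE 0.16, 95% interval -1.42 to -0.68, edgeR adjusted p = 0.00274). With TMM and all livers this was the largest change among the 10 genes, though without Hom liver 2 Acacb (-1.13) and Thrsp (-1.11) fell further than Mlxipl (-1.08), and with library size alone or hepatocyte scaling Srebf1 (1.12 and 1.39) changed more. Leaving out any 1 liver moved Mlxipl between -1.17 and -0.91 with adjusted p-values of 0.0033 to 0.013. Mlxipl was lower under each scaling tried, but with the libraries scaled to the hepatocyte markers it was -0.29 and not called (adjusted p = 0.288). The hepatocyte marker list itself had a median of -0.69; its part in the fall of Mlxipl was not tested.

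The balance of the pair inside a liver differed between the groups as well. In TPM (the authors' per-length values, which permit comparison between genes), the Srebf1 level divided by the Mlxipl level was 0.329, 0.326 and 0.269 in WT livers and 1.61, 0.856 and 0.742 in Hom livers. Mlxipl was the more abundant of the pair in all WT livers and in Hom livers 2 and 3, by less in the latter, and Srebf1 was the more abundant in Hom liver 1. This ratio was picked after the values were seen and is given without a test.

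Calls in the lists below are read beside the shares over all tested genes. With TMM these were 20.1% lower and 21.5% higher. With library size alone 47.6% were higher (642 genes lower), and with hepatocyte scaling 64.9% (306 genes lower). The factors that act with SREBP-1 and ChREBP were read from a list of 14 genes. Of these 6 were lower, 1 was higher and 7 were not called, with a median log2 fold change of -0.29; with library size alone 0 were lower and 5 higher (median 0.16), and with hepatocyte scaling 0 and 7 (median 0.44). The deepest fall was that of Ppargc1b, a coactivator of SREBP-1, from 8.99, 14.8 and 14.8 CPM to 7.0, 5.40 and 6.85 CPM (log2 fold change -1.0, SE 0.23, edgeR adjusted p = 0.0125; not called at -0.54 with library size alone or at -0.27 with hepatocyte scaling). The gene called higher was Srebf2, whose product drives cholesterol synthesis, at 70.3, 79.5 and 73.7 CPM in WT and 98.0, 99.9 and 104 CPM in Hom (0.44, SE 0.078, edgeR adjusted p = 0.00550), and it was higher under each scaling. Insig1, which retains the SREBP precursors and is itself an SREBP target, was named after its value was seen and had a log2 fold change of 0.042 (SE 0.15, edgeR adjusted p = 0.838), against 0.51 (adjusted p = 0.0334) with library size alone and 0.81 (adjusted p = 0.0113) with hepatocyte scaling, which called it higher.

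Acly supplies the acetyl-CoA. Its level was 244, 388 and 343 CPM in WT and 252, 242 and 212 CPM in Hom. WT liver 1 lay among the Hom livers and the other WT livers above them. The log2 fold change was -0.47 (SE 0.18, 95% interval -0.89 to -0.039, edgeR adjusted p = 0.0761). With library size alone it was 0.0022 and with hepatocyte scaling 0.29, settings that shift all genes upward. Against the median of all genes it was -0.45 in both. Taking off that median undoes a shift shared by all genes. Such values therefore come near the TMM value by construction, here and below. Without WT liver 1 Acly passed the test at -0.64 (adjusted p = 0.0106).

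Acaca and Acacb encode the acetyl-CoA carboxylases ACC1, which is cytosolic and feeds synthesis, and ACC2, which sits at the mitochondrial outer membrane, where its malonyl-CoA restrains fatty acid oxidation. Acaca was measured at 168, 152 and 129 CPM in WT and 148, 180.3 and 170.4 CPM in Hom. The groups overlapped, and the log2 fold change was 0.15 (SE 0.13, 95% interval -0.15 to 0.45, edgeR adjusted p = 0.379). Acacb was measured at 91.6, 104 and 129 CPM in WT and 36.7, 89.9 and 61.7 CPM in Hom.

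All Hom livers were below all WT livers for Acacb, yet Hom liver 2 came close to WT liver 1 and Hom liver 1 was far below the rest. With a coefficient of variation of 42.4% among Hom livers, the log2 fold change of -0.78 (SE 0.31, 95% interval -1.50 to -0.061) had an adjusted p of 0.0775 in edgeR. Without Hom liver 2 the fall was -1.13 and passed (adjusted p = 0.0260), and without Hom liver 1 it was -0.51; with hepatocyte scaling the value was 0.019, or -0.72 against the median of all genes. The intervals around single genes here are not adjusted for the number of genes, so some exclude 0 where the adjusted p does not pass.

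Control of ACC was read from 9 genes of the AMP-activated kinase AMPK, which phosphorylates and inhibits ACC, its activator LKB1, the ACC regulator Mid1ip1 and malonyl-CoA decarboxylase. Of the 9, 3 were lower (Prkaa2, Prkag2 and Mlycd), 2 were higher (Prkab1 and Prkab2) and 4 were not called, with a median of -0.20; library size alone gave 0 lower and 4 higher (median 0.26), and hepatocyte scaling 0 and 6 (median 0.55). Prkab1, a regulatory subunit, went from 24.2, 24.5 and 21.4 CPM to 59.2, 39.2 and 41.7 CPM (log2 fold change 1.00, SE 0.17, edgeR adjusted p = 0.00418) and was higher under each scaling. Prkaa2, a catalytic subunit, went from 66.2, 60.9 and 62.2 CPM to 42.4, 53.2 and 40.6 CPM (-0.47, SE 0.12, edgeR adjusted p = 0.0167), was not called without Hom liver 3 (adjusted p = 0.0619) was at -0.016 with library size alone and turned to 0.28 with hepatocyte scaling. The calls of Prkab2 and Prkag2 were also lost when single livers were left out, with adjusted p-values up to 0.110 and 0.152.

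Fasn, the fatty acid synthase, was measured at 589, 658 and 581 CPM in WT and 602, 856 and 645 CPM in Hom. Hom livers 1 and 3 lay inside the WT range and Hom liver 2 above it. The log2 fold change was 0.20 (SE 0.16, 95% interval -0.18 to 0.59, edgeR adjusted p = 0.352), so a rise of up to 0.59 or a fall of up to 0.18 fits within the interval. Library size alone (0.67, adjusted p = 0.0225) and hepatocyte scaling (0.98, adjusted p = 0.00614) called Fasn higher, and Acaca likewise (0.60 and 0.91). These settings gave 4 of the 10 members higher in place of 2, but they also called 47.6% and 64.9% of all genes higher, since the median over all genes then stood at 0.45 and 0.74 on the log2 scale. Taken against those medians, Fasn was at 0.22 and 0.24, near its value with TMM by construction.

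**Figure D2:**
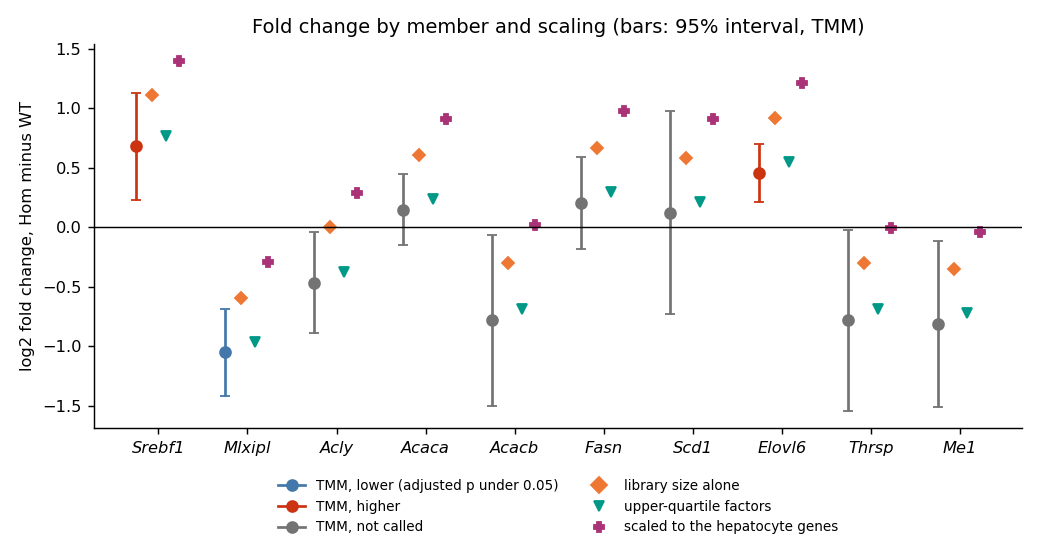
Log2 fold change (Hom minus WT) of the 10 genes; circles with 95% interval bars are the TMM fit, coloured by call, and the other symbols are 3 other ways of scaling the libraries. All genes shift upward together when libraries are scaled by size alone or to the hepatocyte genes, so Mlxipl moves from -1.05 to -0.59 and -0.29, while the order of the genes stays nearly the same.

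Scd1, the main stearoyl-CoA desaturase of liver, makes oleate from stearate. It was the most abundant of the 10, at 10229.6, 5885 and 6926 CPM in WT and 5085, 12145 and 7872 CPM in Hom. The groups overlapped widely, with the lowest and the highest liver both Hom. The log2 fold change was 0.12 (SE 0.36, 95% interval -0.73 to 0.98, edgeR adjusted p = 0.806). It turned to -0.24 without Hom liver 2 and to -0.041 without WT liver 2.

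Its relative Scd2, the form dominant in brain, behaved otherwise. Scd2 was at 7.87, 5.45 and 10.0 CPM in WT and at 162, 127 and 90.3 CPM in Hom (log2 fold change 4.02, SE 0.30, edgeR adjusted p = 3.38e-04), and it was higher under each scaling. The count of Scd1 divided by that of Scd2 was 1301, 1076 and 692 in WT livers and 31.4, 96.0 and 87.2 in Hom livers. Every Hom ratio was below every WT ratio, by 15.4-fold on average. Scd4 was under 1 CPM in every liver and not called, and Scd3 was too low to be tested, with 3 to 15 counts. The Scd genes are near copies of one another, and reads shared between them may have been divided by the counting.

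Elovl6 lengthens palmitate to stearate. Its level was 82.9, 84.9 and 96.3 CPM in WT and 112, 133 and 117 CPM in Hom. All Hom livers were above all WT livers, and the livers of each group lay close together. Means of 88.0 ± 7.24 and 121 ± 11.1 CPM (SD, n = 3 each) gave a log2 fold change of 0.45 (SE 0.10, 95% interval 0.21 to 0.70, edgeR adjusted p = 0.0125), and Elovl6 was higher under each scaling. Leaving out WT liver 2 moved it just past the threshold (0.42, adjusted p = 0.0508), and without Hom liver 1 it was 0.51 (adjusted p = 0.0146).

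Elovl5, which acts on polyunsaturated fatty acids, went the other way, from 530, 477 and 572 CPM to 189, 335 and 315 CPM (log2 fold change -0.91, SE 0.22, edgeR adjusted p = 0.0167; not called at -0.44 with library size alone or at -0.13 with hepatocyte scaling). Each Hom liver therefore carried more Elovl6 per Elovl5 count (0.591, 0.396 and 0.372) than any WT liver (0.156, 0.178 and 0.168).

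Elongation and desaturation beyond the 10 genes were read from a list of 18, of which 17 were tested. Of the 17, 7 were lower, 5 were higher (Scd2, Fads3, Elovl7, Hacd4 and Elovl1) and 5 were not called, with a median log2 fold change of -0.22; library size alone gave 1 lower and 6 higher (median 0.23) and hepatocyte scaling 1 and 8 (median 0.52). The calls of Scd2 and Fads3 held whichever liver was left out. Those of Elovl7 and Elovl1 held only without WT liver 3 and that of Hacd4 only without WT liver 1, with adjusted p-values up to 0.119, 0.0945 and 0.146. The deepest fall was that of Elovl3, an elongase of saturated very long chains, from 230, 735 and 805 CPM to 0.513, 1.73 and 7.80 CPM (-7.45, SE 1.05, edgeR adjusted p = 0.00229). It was lower under each scaling, between -6.66 and -7.46. Elovl3 is known to be expressed more in male than in female mouse liver and to cycle through the day; without Hom liver 1 the log2 fold change was -6.96 (adjusted p = 0.00454).

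Thrsp encodes Spot 14, a protein that promotes lipogenesis and binds the ACC regulator MID1IP1. Its level was 165, 233 and 323 CPM in WT and 126, 197 and 96.5 CPM in Hom. Hom liver 2 lay inside the WT range and the other Hom livers below it. The log2 fold change of -0.78 (SE 0.32, 95% interval -1.54 to -0.022) had an edgeR adjusted p of 0.0898, and the spread was wide in both groups (coefficients of variation 33% and 36.9%). Without WT liver 1 or Hom liver 2 the fall passed the test (-1.0, adjusted p = 0.0458, and -1.11, adjusted p = 0.0398), and without WT liver 3 it was -0.52 (adjusted p = 0.246). It was -0.30 with library size alone and -0.0069 with hepatocyte scaling, or -0.75 in both against the median of all genes.

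Me1, the cytosolic malic enzyme, yields NADPH. It was measured at 285, 177 and 275 CPM in WT and 87.0, 179 and 153 CPM in Hom. WT liver 2 and Hom liver 2 were nearly equal, which made the groups overlap. The log2 fold change was -0.81 (SE 0.29, 95% interval -1.51 to -0.12, edgeR adjusted p = 0.0615), it was -0.57 without Hom liver 1, and hepatocyte scaling brought it to -0.039, or -0.78 against the median of all genes.

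Carbon and NADPH supply around these enzymes were read from 15 genes, of which 6 were lower, 2 were higher (Me2 and Pgd) and 7 were not called. The median was -0.51 with TMM, -0.044 with library size alone (1 lower, 2 higher) and 0.24 with hepatocyte scaling (0 lower, 5 higher). Khk, the ketohexokinase that commits fructose to the pathway, fell from 398, 318 and 309 CPM to 137, 159 and 166 CPM (log2 fold change -1.15, SE 0.14, edgeR adjusted p = 0.00132; -0.40 and not called with hepatocyte scaling). Me2, the mitochondrial malic enzyme, was at 3.91, 2.82 and 1.84 CPM in WT and 4.95, 5.90 and 5.30 CPM in Hom (0.91, SE 0.28, edgeR adjusted p = 0.0373), a call that was kept without WT liver 1 and lost without any other liver (adjusted p-values up to 0.112). Pgd, of the pentose phosphate pathway, had a log2 fold change of 0.63 (SE 0.14, edgeR adjusted p = 0.0121).

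Mitochondria run a separate fatty acid synthesis, which makes the precursor of lipoic acid. Of the 7 genes listed for it 6 were tested, Hsd17b8 was not analysed here, and 3 were lower (Mcat, Ndufab1 and Acsf3), 0 higher and 3 not called, with a median of -0.39; with library size alone 0 were lower and 0 higher (median 0.070), and with hepatocyte scaling 0 and 1 (median 0.35). Mcat, the malonyl transferase of that pathway, went from 17.9, 20.5 and 19.8 CPM to 11.5, 13.6 and 11.6 CPM (log2 fold change -0.67, SE 0.11, edgeR adjusted p = 0.00443; not called at -0.20 with library size alone or at 0.090 with hepatocyte scaling). The calls of Mcat and Ndufab1 held whichever liver was left out, and that of Acsf3 held only without WT liver 1 (adjusted p-values up to 0.125).

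**Figure D3:**
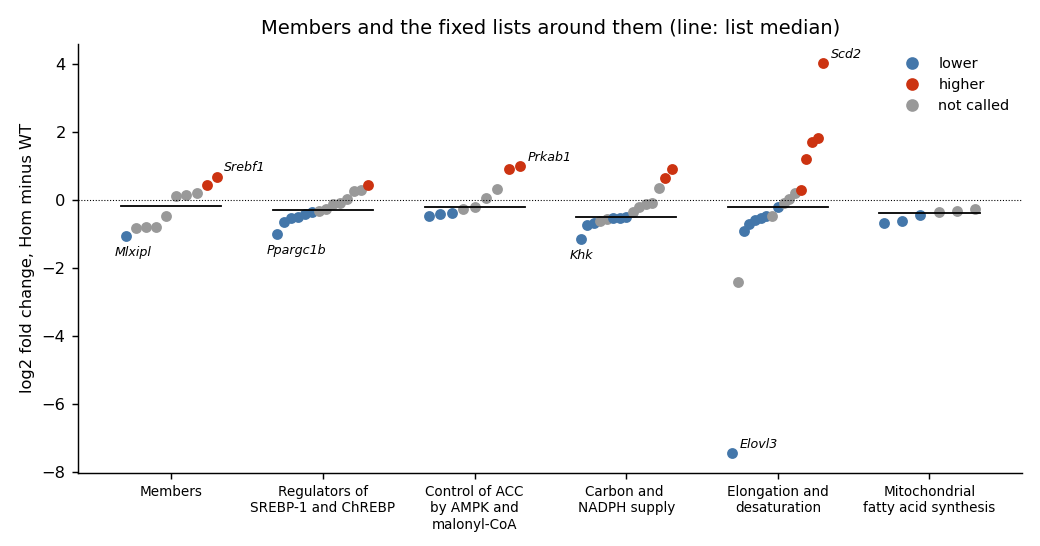
Log2 fold change (Hom minus WT, TMM scaling) of every tested gene in the 10 lipogenesis genes and the 5 surrounding lists; blue points were called lower, red higher and grey not called, and each line is the median of its list. The medians run from -0.17 for the 10 genes to -0.51 for carbon and NADPH supply, and Scd2 (4.02) and Elovl3 (-7.45) lie far outside the rest.

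Ratios inside one library do not depend on how libraries are scaled, so 7 of the genes were each set against a relative that was named with them. For 6 of the 7 pairs the Hom ratios did not overlap the WT ratios. Among single genes, 55.6% of all those tested did not overlap either, and no such share was computed for ratios of genes. The exact two-sided permutation test over livers gave p = 0.1 for each of these 6 pairs, which is the smallest p that 3 livers against 3 allow, and 0.117 after adjustment over the 7 pairs. No pair could pass 0.05 in this design.

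Acaca stood higher relative to Acacb in Hom livers. The Acaca count was 1.83, 1.46 and 1.01 times that of Acacb in WT livers and 4.03, 2.01 and 2.76 times in Hom livers, a log2 difference of 1.02 (SE 0.39). Mlxipl over Mlxip (MondoA, the relative best known from muscle) had ratios of 22.9, 23.6 and 29.2 in WT and 14.0, 14.4 and 16.4 in Hom (log2 difference -0.75, SE 0.13). Mlxip itself was not called (log2 fold change -0.33, edgeR adjusted p = 0.149).

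Thrsp stood at 4.91, 4.67 and 9.59 times the count of Mid1ip1 in WT and at 2.21, 3.70 and 2.69 times in Hom (log2 difference -1.11, SE 0.40); Mid1ip1 was not called (0.32, edgeR adjusted p = 0.281). Me1 over Me2 was 73.4, 62.8 and 147 in WT and 17.6, 30.5 and 28.9 in Hom (log2 difference -1.82, SE 0.45). The differences for Scd1 over Scd2 and Elovl6 over Elovl5, whose ratios are given above, were -3.95 (SE 0.58) and 1.41 (SE 0.22). Srebf1 and Srebf2 rose together: the ratios 2.46, 1.99 and 1.73 in WT overlapped 3.18, 2.12 and 2.03 in Hom (log2 difference 0.23, SE 0.25, exact permutation p = 0.4). Their difference ran from 0.026 without Hom liver 1 to 0.37 without WT liver 1. Without Hom liver 1 the differences of the other 6 pairs were 0.76 for Acaca over Acacb, -3.44 for Scd1 over Scd2, 1.2 for Elovl6 over Elovl5, -0.70 for Mlxipl over Mlxip, -0.94 for Thrsp over Mid1ip1 and -1.57 for Me1 over Me2.

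**Figure D4:**
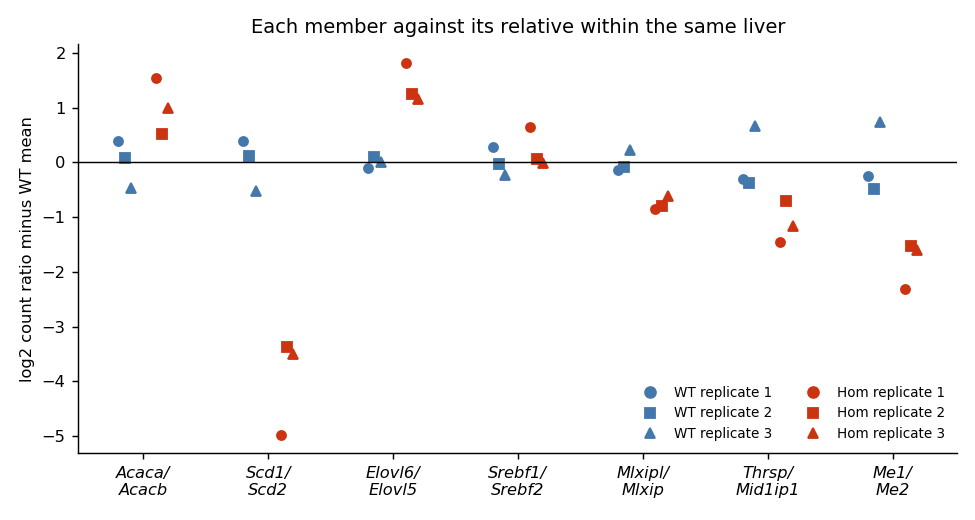
Log2 of the count of each gene over that of its relative in the same liver, with the mean of the WT livers set to 0; each point is 1 liver, WT in blue and Hom in red. Hom livers lie apart from WT livers for every pair except Srebf1/Srebf2, and Hom liver 1 is the farthest from 0 in every pair.

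Per length, the genes kept much of their order between the groups. In WT livers Scd1 led at 2365 ± 984 TPM (SD, n = 3), followed by Thrsp (323 ± 83.0 TPM), Mlxipl (170 ± 29.7 TPM) and then Me1, Acly and Fasn (114 ± 36.9, 106 ± 14.1 and 93.5 ± 9.26 TPM). Srebf1 came next at 52.6 ± 13.3 TPM, and Acaca, Elovl6 and Acacb were lowest at 24.2 ± 5.66, 21.4 ± 1.91 and 18.2 ± 2.08 TPM. Neighbours whose livers overlapped in WT were Me1 and Acly, Acly and Fasn, Acaca and Elovl6, and Elovl6 and Acacb.

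In Hom livers Scd1 (3946 ± 1902 TPM) and Thrsp (296 ± 124 TPM) again stood first, but Fasn came next at 167 ± 42.7 TPM, ahead of Mlxipl at 128 ± 30.9 and Srebf1 at 127 ± 20.2 TPM. Acly (119 ± 10.1 TPM), Me1 (99.3 ± 39.3 TPM), Elovl6 (45.4 ± 7.15 TPM), Acaca (41.1 ± 6.88 TPM) and Acacb (16.7 ± 8.03 TPM) followed. From Thrsp down to Me1 each neighbour overlapped the next, as did Elovl6 and Acaca. TPM values share 1 total per liver and carry no TMM factor, so they serve for order within a liver and not for the change between groups.

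The 10 genes did not all move together from liver to liver. Measured as deviations from the mean of its own group, 9 of the 10 genes were above the mean in Hom liver 2 (all but Srebf1) and 2 of the 10 in Hom liver 1 (Srebf1 and Acly), while the other 4 livers had 5 of 10 each. Scd1, Acacb, Me1 and Thrsp varied most, and in Hom liver 2 they were 0.42 to 0.63 above their means on the log2 scale. In Hom liver 1 Acacb, Scd1 and Me1 were lowered by 0.62 to 0.68, and Srebf1 was raised by 0.37.

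Over the 45 pairs of genes and the 6 livers, Pearson's r of these deviations was above 0 for 29 pairs, with a median of 0.28. The highest values were 0.89 for Scd1 with Me1 and for Acacb with Elovl6, and the lowest was -0.90 for Srebf1 with Acacb. Srebf1 had values below 0 with every other gene, the weakest with Acaca (-0.022) and the next to lowest with Elovl6 (-0.82). These values describe 6 livers, share each library's scaling factor and lean on Hom livers 1 and 2.

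**Figure D5:**
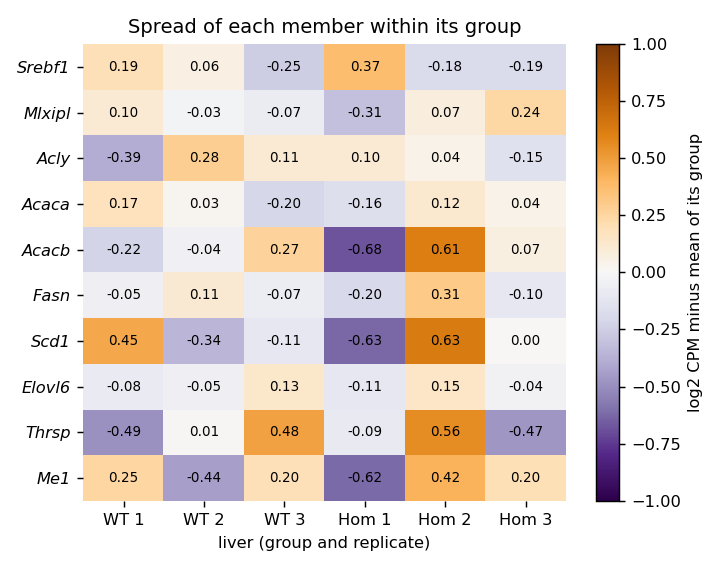
Deviation of each gene in each liver from the mean of its group, in log2 CPM; orange cells are above and purple cells below the group mean. Hom liver 2 is above its group mean for 9 of 10 genes and Hom liver 1 for 2 of 10, with Acacb, Scd1 and Me1 showing the widest gap between these livers.

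Without Hom liver 1, the same genes were called, 1 lower (Mlxipl, -0.91, edgeR adjusted p = 0.00326) and 2 higher (Srebf1 and Elovl6). The sign of Scd1 stayed positive at 0.38. Without Hom liver 2, 3 genes were lower, as Acacb and Thrsp joined Mlxipl. Without WT liver 2, 0 were higher.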

How the data were processed

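RNA was measured in the livers of 3 WT and 3 Hom mice, 1 library per mouse, extracted with Trizol and sequenced on the DNBSEQ platform. The authors deposited estimated counts per gene (not scaled, 65.9% of them whole numbers), FPKM and TPM per liver. The submitters' processing notes list HISAT2 2.0.4, Bowtie2 2.2.5, RSEM 1.2.12 and mm9, without their roles; strandedness was not given in the sources used here. The authors' FPKM served only to recover gene length, and the deposited TPM only for order within a liver. The deposited group means have the group names swapped in all 17975 genes and were not used.

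After rounding, the estimated counts went into edgeR 4.0.16 under R 4.3.3 (filterByExpr, 13805 genes; TMM; quasi-likelihood test; Benjamini-Hochberg over all tested genes, 0.05, no minimum fold), comparing 3 Hom with 3 WT livers. Depth was 19349418 to 19730236 estimated counts per library. Alternatives were library size alone, upper-quartile factors, libraries scaled to 20 hepatocyte genes, DESeq2 1.42.0, other count filters, the replicate block, a length correction, a minimum log2 fold change of 1 and each liver left out; those for the surrounding lists were added after seeing the data. Ratios of counts within a liver were compared with an exact permutation test. The procedure was tested on counts simulated from the WT means, without the marker shifts seen between the groups. That test does not bear on the choice among scalings. Promoter windows came from RefSeq on GRCm38.p6, a newer build than the mm9 of the notes, and were not joined to the counts.

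The 10 genes and the lists were chosen with earlier results of these data known. Named were the 10 genes, Nek7, the 7 relatives, in each list the gene with the largest called change in each direction and the genes not tested. Further list genes in the text were chosen after their values were seen.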

Additional observations from a re-analysis of the deposited data

How the results depend on the processing

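Of 140 values of the 10 genes under alternatives, 118 kept their direction and side of the threshold, 13 came to pass it, 4 no longer passed it and 5 changed sign. Beside 1 lower and 2 higher in the main result, hepatocyte scaling gave 0 lower and 4 higher, library size alone 4 higher, DESeq2 5 lower, and a minimum absolute log2 fold change of 1 left 0 higher. Leaving out 1 liver gave 1 to 3 lower and 0 to 2 higher. The sign changes were Acly with library size alone (0.0022) and with hepatocyte scaling (0.29), Acacb with hepatocyte scaling (0.019), and Scd1 without WT replicate 2 (-0.041) and without Hom replicate 2 (-0.24), within a range of -0.24 to 0.38 when 1 liver was left out; beyond the rescaling itself, the cause was not tested. Over all genes, 51.7% of calls were higher with TMM, 91.1% with library size alone, 62.8% with upper-quartile factors, 96.7% with hepatocyte scaling and 76.0% with the minimum fold change of 1. Calls over all genes numbered 2780 lower and 2974 higher with TMM, 642 and 6574 with library size alone, 306 and 8953 with hepatocyte scaling, 575 and 1825 with the minimum fold change.

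WT and Hom livers share replicate numbers but are different mice, and same-numbered livers did not deviate together (correlations -0.11, -0.056 and -0.049). With the replicate block 2 members were lower and 2 higher, as Acacb passed at -0.86 (adjusted p = 0.0402). All 49 alternatives for the ratios within a liver kept their sign. Leaving out 1 of 3 livers cannot move the difference between the groups by 1 pooled SD, so the size of the moves was not judged against that SD. Depth left Scd3, with 3 to 15 counts a liver, untested; the intervals of the 10 genes rest on 3 livers a group.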
